A study of Mus musculus with 6 samples.

Results

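Epithelial junction genes were examined in liver RNA of mice labelled as hepatocyte knockouts of the splicing factor SRSF3. The set holds every gene annotated with a single symbol of the claudin (Cldn), connexin (Gja, Gjb, Gjc) or zonula occludens (Tjp) families, together with Cdh1, Cdh2, Ocln, F11r, Ctnna1, Ctnnd1 and Jup. It comprises 39 of the 16277 genes on the arrays, with 364 of 229581 probe sets. There were 20 claudins, 10 connexins and 9 scaffold, transmembrane, cadherin and catenin genes. Whole-liver RNA of untreated mice aged 1 month was hybridised to Affymetrix exon arrays for mouse, on which a gene is read by several probe sets. The SRSF3HKO group (hepatocyte knockout of SRSF3) had 3 arrays and the WT group (wild-type littermate controls) had 3. The labels used here name neither the deleted part of the gene nor the promoter that drives the deletion, and the RNA also holds the transcripts of the liver cells in which the gene was not targeted. The labels count 3 knockout mice and do not tie each WT array to a separate mouse, so p-values measure the spread between these arrays only.

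Tight junctions seal the space between neighbouring hepatocytes around the bile canaliculus and keep bile apart from blood. Claudins form the seal or, in some cases, ion pores within it, and zonula occludens proteins tie them to the actin cytoskeleton. Connexins form gap junctions, through which coupled hepatocytes share ions and small molecules, and E-cadherin (Cdh1) and N-cadherin (Cdh2), which hepatocytes both express, hold cells together with the help of catenins.

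Expression levels are log2(intensity + 16), with the median over a gene's probe sets, and changes are SRSF3HKO minus WT on that scale with the SE of limma, which understates the change of dim genes. Median array intensity lay between 75.3 and 89.6. Levels correlated across genes at Pearson's r of 0.973 to 0.981 among WT arrays, 0.904 to 0.949 among SRSF3HKO arrays and 0.852 to 0.92 between genotypes, and genes are not independent replicates. Srsf3 had WT levels of 9.79, 9.24 and 9.35 and SRSF3HKO levels of 10.3, 9.1 and 9.78. These overlap. Of its 13 tested probe sets 10 had positive and 3 negative changes, from -1.03 to 1.68, with 6 called higher and 0 lower, and as the deleted part is not named these values do not check the labels. The Y-linked gene Eif2s3y stood at 8.62 and 8.36 on WT arrays 1 and 2 and at 8.99 on SRSF3HKO array 3, and between 4.16 and 4.18 on the others, so both groups held arrays of either kind. The hepatocyte marker albumin (Alb) had a change of -0.02 ± 0.14, and of 10 measured hepatocyte markers the 2 that fell were Cyp2f2 (-3.45 ± 0.89) and Serpina1e (-2.49 ± 0.59, from 1 probe set). Cyp2f2 stood at 8.08, 7.94 and 11.78 on the SRSF3HKO arrays and was called in 7 of 17 other settings, and Serpina1e changed by -1.86 without WT replicate 2 (limma adjusted p = 0.0998).

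Of the 39 junction genes, 27 lay above the detection floor of 5.35, the 90th percentile of genes for taste, vomeronasal and olfactory receptors. Among these 27, 2 genes rose and 6 fell (limma, adjusted p under 0.05). Cdh1 and F11r rose. Cldn1, Cldn2, Cldn3, Tjp3, Gjb1 and Gjb2 fell. The share called was 29.6%, beside 11.9% of all 11711 genes tested, of which 6.85% were higher and 5.03% lower. As the members were chosen with earlier results of these data known, these shares do not test whether junction genes change more often. The median change was 0.00 over the 27 genes and 0.08 over all genes tested. For 12 of the 27 genes the WT and SRSF3HKO arrays lay wholly apart, 44.4% beside 35.6% of all genes tested. Of the single probe sets of junction genes, 269 were bright enough to test, and 32 rose and 41 fell, 27.1% beside 9.05% of all probe sets tested (4.73% higher and 4.32% lower). Without WT replicate 1, 2 or 3 the number of junction genes called was 3, 3 and 4 and that of probe sets 25, 32 and 34. The 19 genes tested but not called had changes between -0.59 and 0.66. The other 12 genes, 9 claudins and 3 connexins with 2 to 11 probe sets each, had gene levels (medians over probe sets) below the floor on average, with array values from 4.13 to 6.01. They were Cldn6, Cldn8, Cldn9, Cldn10, Cldn13, Cldn15, Cldn16, Cldn17, Cldn18, Gja6, Gja10 and Gjb6, and no gene-level change is given for them. Single probe sets of 10 of them were brighter and could be tested, such as Cldn15 probe set 5297393 at 11.24, 11.59 and 11.07 in WT and 11.38, 10.85 and 11.28 in SRSF3HKO. Of these 17 probe sets 0 were called by limma and 3 had an unadjusted p under 0.05, with changes from -0.91 to 0.93. In whole liver, fewer cells of a type and less RNA per cell cannot be told apart.

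**Figure D1:**
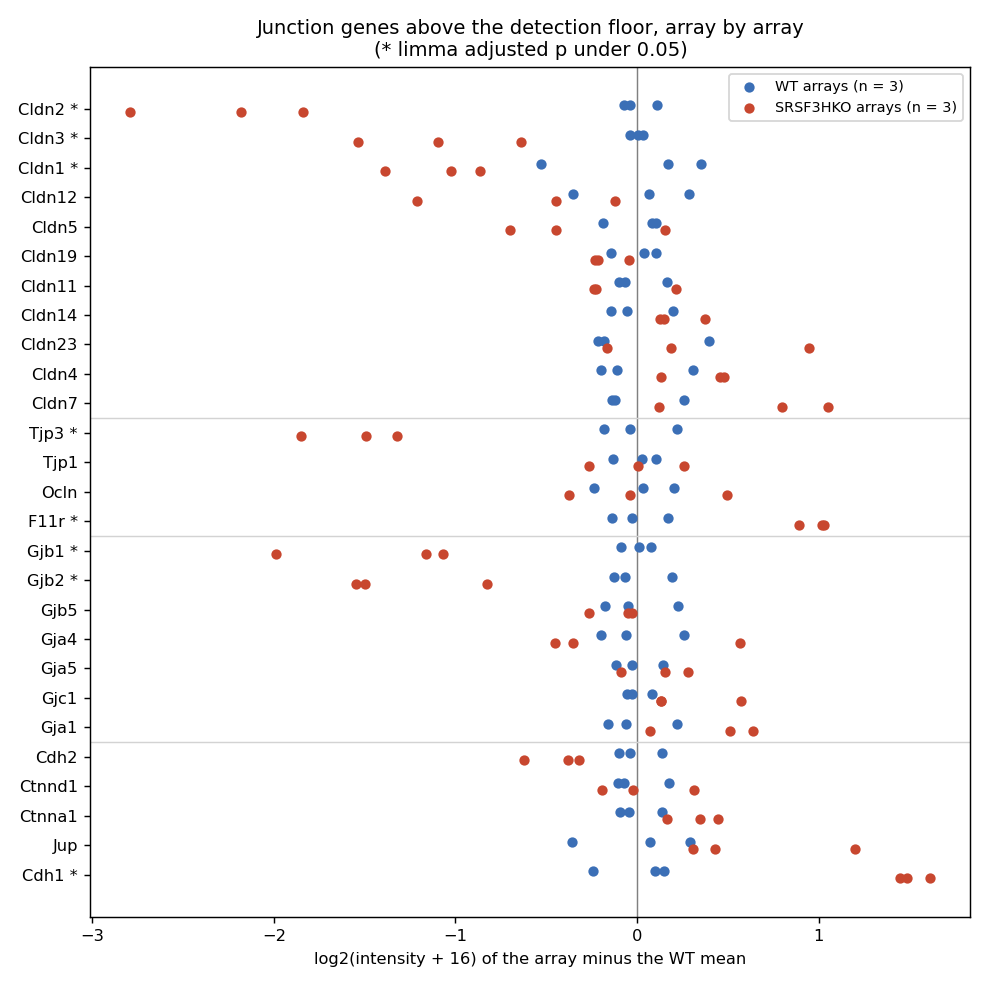
Level of each of the 27 junction genes above the detection floor on each array, as log2(intensity + 16) minus the mean of the 3 WT arrays; points are arrays, horizontal lines part claudins, other tight junction genes, connexins and adhesion genes, and asterisks mark an adjusted p under 0.05. The 3 SRSF3HKO arrays lie left of every WT array for Cldn1, Cldn2, Cldn3, Tjp3, Gjb1 and Gjb2 and right of every WT array for Cdh1 and F11r.

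The sequences upstream of the transcription starts of the called genes are shown because 6 of these genes fell in the same tissue and F11r moved the other way. The table of RefSeq promoters used here (GRCm38.p6) gave 11 starts for 7 of the 8 called genes, with the promoter of Cdh1 not analysed here, and 8 windows of 250 bases that end just before a start are printed 5′ to 3′ on the gene's strand. Capitals mark matches on either strand. The letters searched were TATAAA for the TATA box, CCAAT for the box of that name, GGGCGG for the GC box bound by Sp-type factors, GTTAAT for a part of the HNF1 motif, CAAAGT for a part of the HNF4 motif, TTGCNNAA for the C/EBP motif, and CAGGTG for the E-box read by Snail-type repressors. No matches overlapped.
Cldn2, chrX:139800558-139800807, plus strand: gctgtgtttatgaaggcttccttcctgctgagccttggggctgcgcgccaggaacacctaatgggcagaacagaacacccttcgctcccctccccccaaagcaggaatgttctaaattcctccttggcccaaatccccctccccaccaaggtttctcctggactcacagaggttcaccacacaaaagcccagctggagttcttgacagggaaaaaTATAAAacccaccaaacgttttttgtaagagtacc
Cldn1, chr16:26371840-26372089, minus strand: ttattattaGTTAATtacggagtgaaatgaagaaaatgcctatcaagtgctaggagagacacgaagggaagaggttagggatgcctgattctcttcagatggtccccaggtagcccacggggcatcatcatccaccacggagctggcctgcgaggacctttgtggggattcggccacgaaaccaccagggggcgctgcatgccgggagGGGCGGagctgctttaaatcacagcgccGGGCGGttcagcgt
Cldn3, chr5:134985964-134986213, plus strand: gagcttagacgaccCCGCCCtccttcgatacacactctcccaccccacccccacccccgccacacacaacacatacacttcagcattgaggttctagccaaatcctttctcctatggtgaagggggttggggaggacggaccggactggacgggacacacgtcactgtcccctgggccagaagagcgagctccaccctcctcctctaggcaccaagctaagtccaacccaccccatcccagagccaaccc
Tjp3, chr10:81291582-81291831, minus strand: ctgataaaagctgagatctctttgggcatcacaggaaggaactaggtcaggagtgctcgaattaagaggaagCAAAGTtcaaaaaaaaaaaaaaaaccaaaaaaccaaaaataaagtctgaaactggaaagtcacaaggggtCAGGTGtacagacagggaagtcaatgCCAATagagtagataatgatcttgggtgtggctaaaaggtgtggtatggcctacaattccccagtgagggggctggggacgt
Gjb1 start 1, chrX:101376126-101376375, plus strand: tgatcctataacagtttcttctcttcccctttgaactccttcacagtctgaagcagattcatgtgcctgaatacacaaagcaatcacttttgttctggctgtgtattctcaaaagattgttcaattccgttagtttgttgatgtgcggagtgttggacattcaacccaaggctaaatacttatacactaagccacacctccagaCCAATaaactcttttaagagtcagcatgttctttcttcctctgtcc
Gjb1 start 2, chrX:101376985-101377234, plus strand: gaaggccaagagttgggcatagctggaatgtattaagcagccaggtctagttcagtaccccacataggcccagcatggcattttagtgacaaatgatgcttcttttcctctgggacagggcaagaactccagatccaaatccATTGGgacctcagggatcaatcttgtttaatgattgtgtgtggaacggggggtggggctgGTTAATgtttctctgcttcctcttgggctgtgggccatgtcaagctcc
Gjb2, chr14:57104703-57104952, minus strand: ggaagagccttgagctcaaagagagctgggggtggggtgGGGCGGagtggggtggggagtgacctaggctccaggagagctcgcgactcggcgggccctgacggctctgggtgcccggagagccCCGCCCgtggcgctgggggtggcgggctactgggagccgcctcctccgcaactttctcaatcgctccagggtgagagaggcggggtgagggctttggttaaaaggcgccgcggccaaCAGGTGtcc
F11r, chr1:171437311-171437560, plus strand: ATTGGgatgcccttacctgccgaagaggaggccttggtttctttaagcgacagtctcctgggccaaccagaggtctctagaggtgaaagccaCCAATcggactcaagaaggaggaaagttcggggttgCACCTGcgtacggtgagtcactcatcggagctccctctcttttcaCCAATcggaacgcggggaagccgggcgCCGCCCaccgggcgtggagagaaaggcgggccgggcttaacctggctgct

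The Cldn2 window held a TATA box whose first base lies at position -35, counted back from the start, and none of the other motifs. The letters TATAAA were also in the window of start 4 of Gjb1, at -29, and thus in 2 of the 11 windows and in 12.4% of the 32851 windows of the whole table. The GTTAAT letters were found in the windows of Cldn1, at -241, and of start 2 of Gjb1, at -48, and in 6.43% of all windows. The CAGGTG letters were in 5 of the 11 windows (both starts of Tjp3, start 4 of Gjb1, Gjb2 and F11r) and in 17.2% of all windows. GC boxes were in 5 of the 11 and in 32.7% of all, CCAAT boxes in 4 and in 33.8%, and CAAAGT in 1, that of Tjp3, and in 12.6%. No window held TTGCNNAA, found in 9.56% of all. The windows of genes that fell and of F11r, which rose, shared motifs, such as CCAAT and CAGGTG in Tjp3 and F11r. These are matches of letters and not measured binding.

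Among the claudins, 3 of the 11 tested genes fell and none rose. Cldn2, a claudin that forms a pore for cations and water, had WT levels of 9.56, 9.41 and 9.38 and SRSF3HKO levels of 7.61, 6.66 and 7.27. The groups lay far apart, with the knockout arrays more scattered (SD of 0.484 against 0.0947, n = 3 each). The change was -2.27 ± 0.26, 4.83-fold lower (limma adjusted p = 0.00254), and all 9 tested probe sets were called lower, with changes from -2.77 to -1.51. Cldn2 and Gjb1 lie on the X chromosome. The Cldn2 change was -2.22 among the 3 arrays with Y-linked signal and -2.25 among the 3 without it. The first value rests on SRSF3HKO array 3 alone for the knockout, and the second on WT array 3 alone for WT. The same holds for the values of other genes split in this way below, so these splits test nothing.

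Cldn3, a sealing claudin, had WT levels of 9.97, 9.90 and 9.94 and SRSF3HKO levels of 9.30, 8.4 and 8.84. It fell by 1.09 on the log2 scale (SE 0.25, 2.13-fold lower, limma adjusted p = 0.0277), and 5 of its 7 probe sets were called lower. Its neighbour Cldn4, with no coding gene between them on chromosome 5, stood at 6.14, 5.63 and 5.72 in WT and 6.29, 6.31 and 5.96 in SRSF3HKO. These ranges overlap (change 0.36 ± 0.20, limma adjusted p = 0.283). Of the 2 probe sets of Cldn4, 1 was bright enough to test and changed by 0.02, so the gene-level change came from the dim one.

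Cldn1, a sealing claudin needed for the barrier of tight junctions, had WT levels of 10.50, 10.32 and 9.62 and SRSF3HKO levels of 8.76, 9.28 and 9.12. WT array 3, which lacked Y-linked signal, was the WT array nearest to the knockout arrays. The change was -1.09 ± 0.27 (limma adjusted p = 0.0385). It was -1.29 among the arrays with Y-linked signal and -0.60 among those without it. Cldn1 was no longer called without WT replicate 1 or 2 or SRSF3HKO replicate 1 or 3 (limma adjusted p = 0.152, 0.147, 0.079 and 0.0713), nor Cldn3 without WT replicate 1, 2 or 3 or SRSF3HKO replicate 3 (limma adjusted p = 0.116, 0.103, 0.1 and 0.0598). A covariate for Y-linked signal also ended both calls (limma adjusted p = 0.0702 for Cldn1 and 0.0622 for Cldn3).

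The other claudins did not pass the test. Cldn12, a claudin without the usual PDZ-binding end, was 9.51, 9.09 and 9.73 in WT and 8.23, 9.32 and 9 in SRSF3HKO, with overlapping groups and a change of -0.59 ± 0.31 (limma adjusted p = 0.246). All 7 of its probe sets had negative changes and none was called. Cldn14, a claudin also known from the inner ear, changed by 0.22 ± 0.19 (limma adjusted p = 0.494). Cldn7, a claudin of many epithelia with bile ducts among them, was 5.85, 5.83 and 6.23 in WT and 7.02, 6.77 and 6.09 in SRSF3HKO. It overlapped because SRSF3HKO array 3 lay within the WT range (change 0.66 ± 0.27, limma adjusted p = 0.145), and it was called without that array. Its probe sets disagreed. Of 5 tested, the 3 brightest had negative changes (-0.53, -0.21 and -0.12), the 2 dimmer ones positive changes (0.65 and 0.98), and none was called.

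Cldn5, the claudin of endothelial tight junctions, was near the floor, at 5.94, 5.96 and 5.67 in WT and 5.41, 5.16 and 6.01 in SRSF3HKO (change -0.33 ± 0.24, limma adjusted p = 0.400). Beside it, 12 endothelial markers had a median change of -0.41. Of these 1, the receptor gene Kdr, was called lower, beside 5.03% of all genes tested, and in 10 of 17 other settings. Including Kdr, 5 had an unadjusted p under 0.05 by limma. These were Kdr, Robo4, Oit3, Eng and Lyve1, all with negative changes, while Pecam1 and Esam each had a change of 0.05. The mean of the list was 7.87 to 8.23 on WT and 7.40 to 7.91 on SRSF3HKO arrays. The part of endothelial cells in the Cldn5 values was not tested. The remaining tested claudins, Cldn11, Cldn19 and Cldn23, had changes between -0.17 and 0.32.

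The remaining tight junction genes moved in both directions. Tjp3, which codes for the scaffold protein ZO-3, had WT levels of 7.71, 7.31 and 7.45 and SRSF3HKO levels of 6.17, 5.64 and 6.00. The groups did not overlap, and the change was -1.55 ± 0.21, 2.93-fold lower (limma adjusted p = 0.00524). All 20 tested probe sets had negative changes, from -2.84 to -0.22, and 11 were called.

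Tjp1, which codes for ZO-1, the main scaffold of the same family, was 8.21, 7.97 and 8.13 in WT and 8.11, 8.36 and 7.84 in SRSF3HKO. These values overlap throughout, and the change was 0.00 ± 0.21, with a confidence interval from -0.47 to 0.48 (limma adjusted p = 0.993). Of its 35 probe sets 19 had positive and 16 negative changes, with none called. The sign of so small a change turned with the scaling of the arrays. The difference between the changes of Tjp3 and Tjp1 was not tested.

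Occludin (Ocln), a transmembrane protein of tight junctions, was 7.85, 7.58 and 8.02 in WT and 7.44, 8.31 and 7.78 in SRSF3HKO, with a change of 0.03 ± 0.26 and an interval from -0.57 to 0.62 (limma adjusted p = 0.962). The WT values lay within the knockout range. F11r, which codes for the junctional adhesion molecule JAM-A, was 10.02, 9.71 and 9.82 in WT and 10.74, 10.88 and 10.87 in SRSF3HKO. Every knockout array was above every WT array, and the change was 0.98 ± 0.18, 1.97-fold higher (limma adjusted p = 0.0133). All 13 probe sets had positive changes and 11 were called higher. F11r missed the threshold when WT replicate 1, 2 or 3 was left out (limma adjusted p = 0.0558, 0.0714 and 0.0625).

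**Figure D2:**
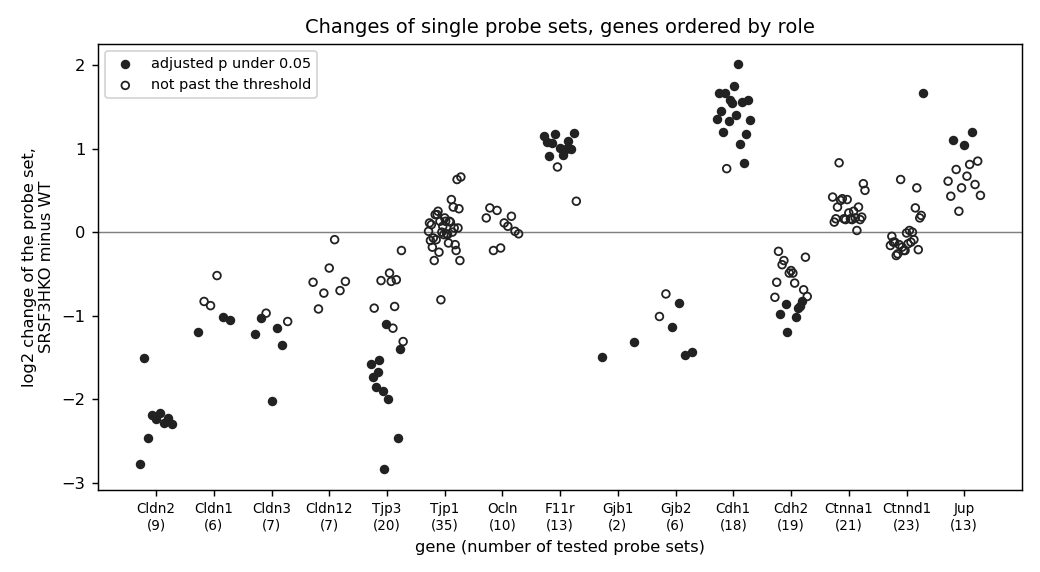
Log2 change (SRSF3HKO minus WT) of each tested probe set of 15 junction genes; each point is 1 probe set, and filled points passed an adjusted p of 0.05 over all probe sets. All probe sets of Cldn2, Tjp3, Gjb1, Gjb2 and Cdh2 lie below 0 and all of Cdh1, F11r, Ctnna1 and Jup above it, whereas those of Tjp1 spread from -0.81 to 0.66.

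Both connexins of hepatocyte gap junctions fell, among 7 connexins tested. Gjb1, which codes for connexin 32, had WT levels of 12.05, 12.12 and 11.95 and SRSF3HKO levels of 10.88, 10.05 and 10.97. Its change was -1.41 ± 0.26, 2.66-fold lower (limma adjusted p = 0.0140), from 2 probe sets, which were both called lower. Gjb2, which codes for connexin 26, had WT levels of 11, 10.94 and 11.26 and SRSF3HKO levels of 9.57, 9.52 and 10.24. Neither gene's groups overlapped. The change of Gjb2 was -1.29 ± 0.24, 2.44-fold lower (limma adjusted p = 0.0147), with 6 of 6 probe sets lower and 4 called.

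Among arrays with Y-linked signal the change was -1.12 for Gjb1 and -0.73 for Gjb2, and among those without it -1.48 and -1.71. Neither connexin was called when WT replicate 1, 2 or 3 was left out (limma adjusted p = 0.0749, 0.079 and 0.0518 for Gjb1 and 0.0734, 0.0661 and 0.0679 for Gjb2). Gjb6 (connexin 30), the neighbour of Gjb2 on chromosome 14 with no coding gene between them, had a gene level below the floor, with array values from 4.13 to 5.48. The 1 of its 5 probe sets that was bright enough, 5347919, stood at 6.59, 6.79 and 7.28 in WT and 6.34, 6.40 and 6.13 in SRSF3HKO, with no overlap, and its change of -0.59 ± 0.27 did not pass (limma adjusted p = 0.199).

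Gja1, which codes for connexin 43, the connexin of many non-hepatocyte cells of liver, was 6.24, 6.34 and 6.62 in WT and 6.91, 7.04 and 6.47 in SRSF3HKO. The groups overlapped through WT array 3 and SRSF3HKO array 3, and the change was 0.41 ± 0.22 (limma adjusted p = 0.255). The vascular connexins Gja4 and Gja5 had changes of -0.07 ± 0.30 and 0.12 ± 0.17, and Gjb5 and Gjc1 of -0.12 and 0.28, none of them called. The probe sets of Gjc1 disagreed with its gene level, as 3 of the 4 tested had negative changes, with none called.

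E-cadherin mRNA rose. Cdh1 had WT levels of 8.92, 8.97 and 8.58 and SRSF3HKO levels of 10.31, 10.44 and 10.27. The 3 knockout arrays lay close together and more than 1 log2 unit above the highest WT array. The change was 1.52 ± 0.19, 2.86-fold higher (limma adjusted p = 0.00372), with 18 of 18 probe sets positive (0.76 to 2.01) and 17 called. It was 1.33 among arrays with Y-linked signal and 1.80 among those without it.

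N-cadherin (Cdh2) had WT levels of 9.48, 9.42 and 9.66 and SRSF3HKO levels of 9.20, 8.90 and 9.14. Each knockout array was below each WT array, and the change of -0.44 ± 0.18 did not pass (limma adjusted p = 0.157). All 19 probe sets had negative changes and 7 were called lower. With the mean or with median polish over probe sets in place of the median, Cdh2 was called, at -0.67 and -0.63 (limma adjusted p = 0.0263 and 0.0362).

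The catenins, which link cadherins to the cell interior, did not pass at gene level. Ctnna1 (alpha-catenin) was 9.62, 9.39 and 9.44 in WT and 9.83, 9.93 and 9.65 in SRSF3HKO, and its change was 0.32 ± 0.18 (limma adjusted p = 0.283), with 21 of 21 probe sets positive and none called. Jup (plakoglobin, shared by adherens junctions and desmosomes) was 8.48, 8.05 and 8.70 in WT and 8.72, 9.61 and 8.84 in SRSF3HKO. Its groups were parted by no more than the gap between WT array 3 and SRSF3HKO array 1. The change was 0.64 ± 0.29 (limma adjusted p = 0.182), with 13 of 13 probe sets positive and 3 called.

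Exon usage compares the change of 1 probe set with that of the rest of its gene and could be tested in 22 of the junction genes. Ctnnd1, which codes for p120-catenin, a stabiliser of cadherins at the membrane with known alternatively spliced forms, was the 1 gene called by limma's diffSplice (Simes adjusted p = 0.00017), beside 6.07% of 10882 genes tested. At gene level it was 8.64, 8.39 and 8.36 in WT and 8.78, 8.44 and 8.27 in SRSF3HKO, which overlap (change 0.03 ± 0.21, limma adjusted p = 0.934). Probe set 5589147 had intensities of 68.6, 16.5 and 45.7 on the WT arrays and 263, 137 and 114 on the SRSF3HKO arrays. Relative to the mean of the other 22 tested probe sets it lay at -2.15, -3.41 and -2.53 in WT and -0.66, -1.09 and -1.25 in SRSF3HKO on the log2 scale, with no overlap. Its usage change was 1.7 (diffSplice adjusted p = 9.62e-05), while the changes of the other 22 ranged from -0.28 to 0.63 with a median of -0.12.

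This probe set is dim in WT. WT array 2 gave its lowest value, and without that array the usage change was 1.34 and the gene's call ended (Simes adjusted p = 0.106). With the filter at the median no usage value was obtained for this probe set. A splicing index, computed on each array as the probe set minus its gene, changed by 1.64 and did not pass (limma adjusted p = 0.198). That test called none of the 244 junction probe sets, with 32 at an unadjusted p under 0.05, and 23 of 135668 probe sets in all. On simulated data the splicing index did not call the changes that had been put in, and diffSplice made more false calls than its threshold allows, so neither the missing calls of the first nor the call of Ctnnd1 by the second is firm. The place of the probe set in the transcript was not analysed here.

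**Figure D3:**
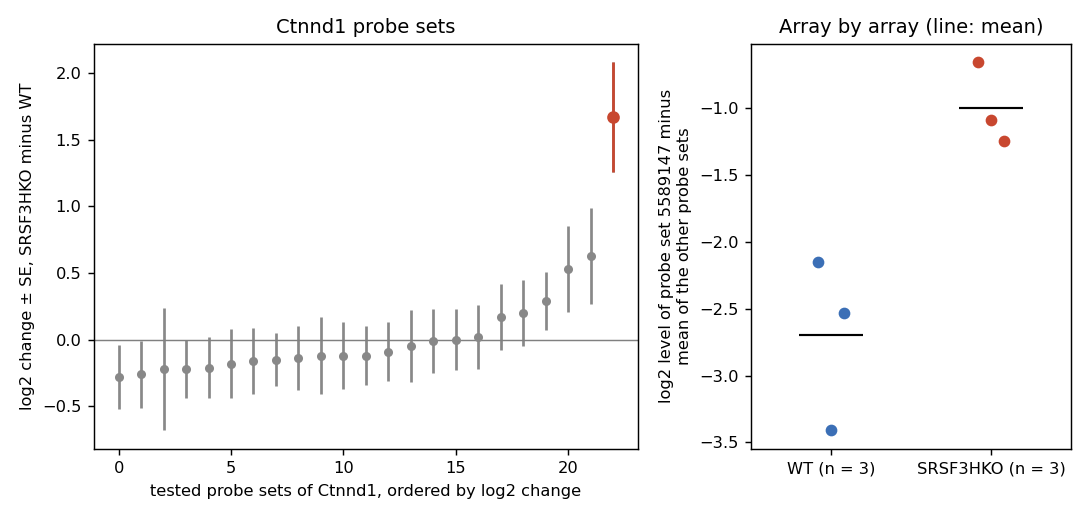
Left, log2 change with SE of the 23 tested probe sets of Ctnnd1, ordered by change (3 arrays per group); right, the log2 level of probe set 5589147 minus the mean of the other 22 on each array, with group means as lines. One probe set, in red, rose while the others lie between -0.28 and 0.63.

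Single probe sets of 2 other scaffold genes were called by diffSplice, 3 of 244 junction probe sets in all beside 0.658% of all probe sets, though their genes were not called by Simes. Probe set 4960109 of Tjp3 had a usage change of -1.58 (diffSplice adjusted p = 0.042). Relative to the other 19 it lay at 1.54, 0.99 and 1.04 in WT and 1.5, -1.42 and -1.24 in SRSF3HKO, so the shift was present on 2 of the 3 knockout arrays. Probe set 4847462 of Tjp1 had a usage change of -0.87 (diffSplice adjusted p = 0.0407), from -0.46, -1.46 and -0.60 in WT to -1.80, -1.71 and -1.63 in SRSF3HKO. WT array 2 lay close to the knockout arrays. The Tjp3 probe set was not called without WT replicate 1, 2 or 3 or SRSF3HKO replicate 2 or 3, nor the Tjp1 probe set without WT replicate 1 or 3 or SRSF3HKO replicate 1 or 3. Without SRSF3HKO replicate 1 Tjp3 was called as a gene (Simes adjusted p = 6.86e-06), and without WT replicate 2 Tjp1 was (Simes adjusted p = 0.00868). The Tjp3 probe set was also lost with a covariate for Y-linked signal and with the filter at the median (diffSplice adjusted p = 0.101 and 0.0781), and the Tjp1 probe set with a pseudocount of 64 (diffSplice adjusted p = 0.0756).

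Beyond these families, 54 other genes of cell junctions had probe sets and 43 were tested, of which 2 rose and 6 fell. Their median change was -0.08. Over all genes tested 6.85% were called higher and 5.03% lower, and these shares also stand beside the counts of the single lists below. The number called was 0, 1 and 0 without WT replicate 1, 2 or 3 and 4 without SRSF3HKO replicate 3. Among 21 tight junction and polarity genes, Crb3 (0.93 ± 0.19) and Prkci (0.71 ± 0.19), both parts of the apical polarity machinery, rose, with limma adjusted p of 0.0211 and 0.047. All tested probe sets of both had positive changes, with 5 of 8 called for Crb3 and 1 of 24 for Prkci. The scaffold genes Mpdz (-1 ± 0.20) and Cgnl1 (-1.02 ± 0.24) and Lsr (-1.07 ± 0.26), whose product marks tricellular contacts, fell, with limma adjusted p of 0.0176, 0.0317 and 0.0355. The list had a median of 0.22. Among 13 adherens junction genes the nectins Nectin3 (-1.57 ± 0.26) and Nectin1 (-0.82 ± 0.21) fell and none rose. Nectin3 was 9.30, 8.88 and 9.46 in WT and 7.68, 7.23 and 8 in SRSF3HKO, well apart. Beta-catenin (Ctnnb1), the partner of both cadherins, had a change of -0.05 ± 0.20 (limma adjusted p = 0.894). Of 6 tested desmosome genes the cadherin Dsg2 fell (-0.89 ± 0.22, limma adjusted p = 0.0373) and none rose. Of the 17 tested probe sets of Dsg2, 2 were called lower. None of 3 other gap junction genes was called by limma, with none at an unadjusted p under 0.05.

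None of 7 tested repressors of E-cadherin, among them Snai1 (-0.03 ± 0.17), Snai2 (-0.48 ± 0.28), Zeb1 (-0.18 ± 0.18) and Zeb2 (-0.05 ± 0.28), was called by limma, and 0 had an unadjusted p under 0.05. Snai1 lay near the floor, with 1 of its 4 probe sets bright enough to test. All 5 probe sets of Snai2 had negative changes, from -0.76 to -0.02, and none was called. Of 12 genes of the canalicular membrane and its trafficking, which the tight junctions border, 2 rose and 3 fell. Over all genes tested 11.9% were called. The export pumps Abcb1a (1.74 ± 0.35) and Abcc2 (0.98 ± 0.23) rose, and the bile salt pump Abcb11 (-1.40 ± 0.37) and the peptidases Anpep (-1.28 ± 0.30) and Dpp4 (-1.43 ± 0.36) fell. Over 17 other settings Abcb11 was called in 9, Abcc2 in 12, Anpep and Dpp4 in 13 and Abcb1a in 15, with the direction kept in each.

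**Figure D4:**
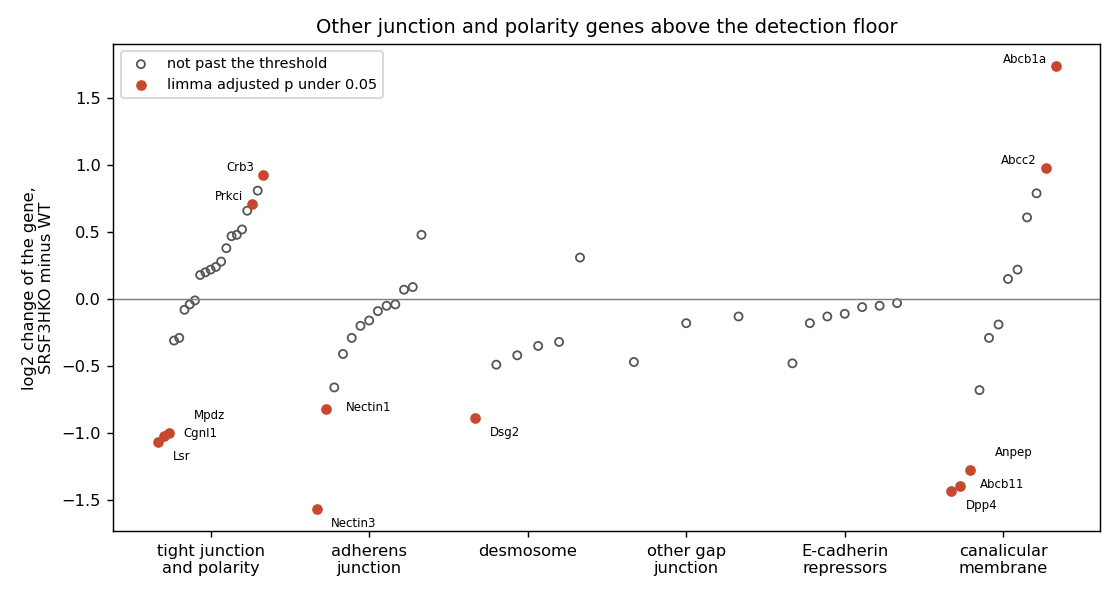
Log2 change (SRSF3HKO minus WT) of the tested genes of 6 further lists; each point is 1 gene, and filled, named points passed a limma adjusted p of 0.05. Crb3 and Prkci rose and Lsr, Cgnl1, Mpdz, Nectin3, Nectin1 and Dsg2 fell, and no E-cadherin repressor passed.

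Markers of other epithelia and of non-epithelial cells were read beside these results. Of 7 tested cholangiocyte markers, which belong to the bile duct cells that also express Cdh1 and Cldn7, 0 were called by limma and 2 had an unadjusted p under 0.05. These were Spp1, at 8.68, 8.34 and 8.25 in WT and 11.41, 9.30 and 9.25 in SRSF3HKO (1.56 ± 0.53, limma adjusted p = 0.0932), and Epcam, at 5.90, 5.51 and 6.27 in WT and 7.05, 7.85 and 6.15 in SRSF3HKO (1.12 ± 0.41, limma adjusted p = 0.111). On SRSF3HKO array 3 the gene levels of Epcam and Cldn7 (6.15 and 6.09) lay within their WT ranges. Krt19 and Sox9 had changes of -0.31 ± 0.66 and 0.11 ± 0.21, and the mean of the 9 measured markers was 5.71 to 6.44 on WT and 6.02 to 6.72 on SRSF3HKO arrays. Cftr and Tspan8 had gene levels below the floor, with 4 and 5 probe sets above it. The 5 of Tspan8 had changes from 0.54 to 0.93, with none called. Of 9 macrophage markers Marco rose (2.78 ± 0.73), from 6.40, 6.26 and 6.37 in WT to 11.15, 8.43 and 7.81 in SRSF3HKO. Including Marco, 4 had an unadjusted p under 0.05 by limma, and the list median was 0.70. Marco, Cd68, Vsig4 and C1qa were above every WT array on each SRSF3HKO array. These are 4 of 9 markers with groups wholly apart, beside 35.6% of all genes tested in either direction. Csf1r, Adgre1, Timd4 and Clec4f were above every WT array on SRSF3HKO array 1 and below every WT array on arrays 2 and 3. SRSF3HKO array 1 was the highest for Marco, Vsig4 and Spp1. The Marco change ranged from 1.77 to 3.44 over 17 other settings, in 8 of which it was called. The macrophage list mean was 8.17 to 8.36 on WT and 8.23 to 10.87 on SRSF3HKO arrays. Of 11 stellate cell and fibroblast markers Col3a1 (-1.41 ± 0.37) and Ngfr (-0.83 ± 0.22) fell, and the list median was -0.08. Of 5 mesothelial markers Upk3b fell (-0.92 ± 0.17, list median -0.28), while Wt1 and Upk1b had changes of 0.06 and 0.07. Of 4 erythroid markers Alas2 fell (-2.35 ± 0.50, list median -1.03). Of 17 other settings Col3a1 was called in 9 and Alas2 in 14, and of 16 Ngfr in 8 and Upk3b in 13. None of 5 lymphocyte, 2 neutrophil and 2 pancreatic markers was called by limma, with none at an unadjusted p under 0.05. The part of these cell types in the changes of the junction genes was not tested.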

How the data were processed

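Liver RNA of SRSF3HKO and WT mice was read on 6 arrays, 3 per group, grouped by the genotype in the labels; replicate numbers follow sample order and pair nothing. PLIER and Affymetrix Expression Console are the tools that the submitters' processing notes name for the authors' values, which were deposited as intensities on a linear scale per probe set. Tool versions, the background step and genome build are not given in the sources used here. Of 229581 probe sets, 208397 had 1 gene by the platform annotation, 3965 had several and 17219 had none. Of 16299 symbols 2124 were updated through RefSeq (GRCm38.p6). Membership followed the annotated symbol, which leaves out 2 genes that became claudins by the update.

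From the deposited intensities, log2(value + 16) was computed, and a gene's level is the median over its probe sets. A gene or probe set entered a test if its mean exceeded the 90th percentile of 1046 receptor genes (5.35 and 5.63). The tests were limma 3.58.1 (trend) in R 4.3.3, Benjamini-Hochberg adjustment over all 11711 genes or 157764 probe sets, and diffSplice in genes with at least 3 tested probe sets. Data were read with the data.table package (1.17.8) and drawn with matplotlib 3.10.9. On simulated data the gene test kept its error rate near its threshold, whereas diffSplice made more false calls than its threshold allows. Calls by diffSplice therefore stand beside array values and the splicing index. The simulated noise was independent between genes and had the same spread in both groups, whereas the SRSF3HKO arrays here were more scattered. The simulation thus does not give the error rate of the gene test in these data. The members and lists were chosen with earlier results of these data known. Named are the called members, the main liver claudins, connexins and cadherins, up to 6 called genes per junction list and 3 per marker list, and further members by their values. Alternatives changed the pseudocount, scaling, gene summary, filter, variance model, threshold, Y-linked covariate and arrays. Scanner files, slides and scan dates were not used here. The number of arrays limits the precision.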

Additional observations from a re-analysis of the deposited data

How the results depend on the processing

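Cdh1, Cldn2 and Tjp3 were called in 17 of 17 settings, and the 8 called junction genes kept their direction in all 17. F11r, Gjb1 and Gjb2 were called in 14, Cldn3 in 12 and Cldn1 in 11, where the mean over probe sets also ended the call (limma adjusted p = 0.0504). At an adjusted p under 0.01 there were 3 junction genes (8 at 0.05), 0 other junction genes (8), 27 junction probe sets (73) and 296 genes in all (1391). With a covariate for Y-linked signal 3 other junction genes and 732 genes in all were called, and with the mean over probe sets 5 other junction genes. When each array was left out in turn, the number called ranged from 3 to 8 for junction genes, 0 to 10 for other junction genes, 25 to 84 for junction probe sets and 244 to 2155 for all genes. All genes called were 244, 274 and 434 without WT replicate 1, 2 or 3 and 2155 without SRSF3HKO replicate 2. The 1 exon usage call among junction genes became 0 with the splicing index, 5 with a pseudocount of 64, 3 with quantile normalization, 3 with median centring and 3 with no filter on dim probe sets, and ranged from 1 to 5 when arrays were left out. The sign of changes near 0 turned for Ocln (-0.04 with quantile normalization, -0.03 with median centring, -0.03 with the Y-linked covariate, and -0.21 to 0.23 with arrays left out) and for Tjp1 (-0.06, -0.05 and -0.05, and -0.13 to 0.14). The cause of these shifts was not tested. With quantile normalization 770 genes rose and 698 fell, with median centring 726 and 691, and without scaling 802 and 589, and the same 8 junction genes were called in each. Of the 8 other junction genes Nectin3 was called in 15 of 17 settings, Mpdz in 14, Crb3 and Cgnl1 in 13, Lsr in 11, Dsg2 in 9 and Nectin1 and Prkci in 8, each with its direction kept. A minimum change of 1.5-fold removed no gene. No paired analysis was possible because the labels give genotype only and the replicate numbers follow sample order. A background correction of scanner signals and a slide block were not run. Genes near the floor and the arrays' small number limit what could be called.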
